A study of Mus musculus with 25 samples.

Results

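Calca, Calcb, Tac1 and Adcyap1, the genes of the main neuropeptides of pain-sensing neurons, were followed in dorsal root ganglia of 25 BXD mouse strains. They were found in the deposited table by the Ensembl identifiers that carry these symbols, which gave 4 genes of 16220, and all 4 passed the filter on low values with 16152 genes in all. BXD strains are recombinant inbred lines from a cross of the inbred strains C57BL6/J and DBA2/J, so each line carries its own fixed mixture of the alleles of both parents. All mice were 8 weeks old, and RNA of the ganglia was extracted with Trizol and sequenced after preparation with the Illumina TruSeq RNA kit v2, which does not mark the strand. The strains fell into 9 whose name ends in RwwJ (BXD44, BXD48, BXD55, BXD60, BXD68, BXD73, BXD77, BXD87 and BXD89) and 16 whose name ends in TyJ (BXD1, BXD2, BXD5, BXD6, BXD9, BXD11, BXD13, BXD14, BXD15, BXD16, BXD21, BXD28, BXD34, BXD36, BXD40 and BXD42). The ending is the code of the laboratory a line comes from, and the labels name no treatment. Each strain had 1 library, so genotype, animal, dissection and library cannot be told apart within a strain, and every p-value measures only the spread between strains. The sources used here do not give the sex of the animals or how many were pooled in a library.

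Dorsal root ganglia hold the cell bodies of the sensory neurons of the trunk and limbs. Peptidergic nociceptors, a class of small neurons that respond to heat and tissue damage, store neuropeptides in dense-core vesicles and release them in the dorsal horn and at their endings in the skin and viscera. Calca encodes calcitonin and, by alternative splicing, alpha-CGRP, a strong dilator of blood vessels, which is its main product in sensory neurons, and Calcb encodes the closely related beta-CGRP. Tac1 encodes the precursor of the tachykinins substance P and neurokinin A, and Adcyap1 encodes PACAP, a peptide that raises cAMP in its target cells.

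The sequences upstream of the starts of Calca, Tac1 and Adcyap1 are shown because Tac1 varied with each of the other two over strains and because the binding motif of CREB-family factors, which act downstream of cAMP, can be read in them. They come from RefSeq on the mouse build GRCm38.p6, a later build than that of the counts, run 5′ to 3′ on the strand of the gene and cover the 250 bases before the start. Capitals mark the 5 bases TGACG, the half-site of the cAMP response element, or their reverse complement CGTCA. The Calca window is chr7:114636358-114636607 (minus strand), that of Tac1 is chr6:7554811-7555060 (plus strand) and that of the first of the starts listed for Adcyap1 is chr17:93198767-93199016 (plus strand).
Calca: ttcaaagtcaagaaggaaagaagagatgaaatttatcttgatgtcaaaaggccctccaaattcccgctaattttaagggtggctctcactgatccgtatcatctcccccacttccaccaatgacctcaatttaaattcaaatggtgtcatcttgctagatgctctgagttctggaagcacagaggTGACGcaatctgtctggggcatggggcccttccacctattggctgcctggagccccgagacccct
Tac1: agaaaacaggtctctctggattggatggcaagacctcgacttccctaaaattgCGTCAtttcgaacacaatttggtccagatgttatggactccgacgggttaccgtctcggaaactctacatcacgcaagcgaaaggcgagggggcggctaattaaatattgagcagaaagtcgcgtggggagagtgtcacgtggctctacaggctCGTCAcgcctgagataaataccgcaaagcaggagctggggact
Adcyap1: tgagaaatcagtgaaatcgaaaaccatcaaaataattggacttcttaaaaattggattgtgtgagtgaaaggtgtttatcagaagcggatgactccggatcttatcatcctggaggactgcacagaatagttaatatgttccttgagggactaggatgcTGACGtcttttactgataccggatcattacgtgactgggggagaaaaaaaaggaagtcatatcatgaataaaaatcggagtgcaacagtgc
Calca held 1 half-site, which begins at position -65, counted from -1 at the base before the start. Tac1 held 2, which begin at -197 and -43, and Adcyap1 held 1 at -91. Of 32851 windows of the same length in the RefSeq table, 17.8% held TGACG on either strand, so a match is common. The full 8-base palindrome TGACGTCA, which contains the half-site and was found in 1.55% of windows, was in none of these windows. The E-box CACGTG, present in 6.02% of windows, was in the Tac1 window alone of those printed. These matches describe letters only, and no binding was measured.

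The values are read counts that the authors scaled to a common upper quartile and rounded, called scaled counts here. Totals ran from 24637919 to 26860283 scaled counts per library. Estimated depth ran from 20030000 to 40150000 reads, with a median of 23100000, and at this depth counting error was small for the peptide genes: its coefficient of variation was at most 0.631% for Calca and at most 3.09% for Adcyap1. The tissue label was checked against neuronal markers: all 9 genes of the pan-neuronal list were measured, led by the tubulin gene Tubb3 with 70436 to 109907 scaled counts. Markers of spinal cord differed between libraries, with the myelin gene Mobp at 15 in BXD68 and 2992 in BXD48, and BXD48 had the highest spinal cord score. In whole ganglia, fewer cells of a type and less RNA per cell cannot be told apart.

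Calca stood far above the other peptide genes. Per kilobase of annotated exon, the mean level over 25 strains was 22551 ± 7074 scaled counts for Calca, 3480 ± 838 for Calcb, 2197 ± 620 for Tac1 and 448 ± 94.6 for Adcyap1 (SD). This order held within each of the 25 libraries, but that of Calcb and Tac1 turns without the division by exon length: in scaled counts Calcb was 0.388 to 0.792 times Tac1. The closest neighbours in it were Calcb and Tac1, whose ranges over strains overlapped: the level of Calcb per kilobase was 1.04 times that of Tac1 in BXD5 and 2.13 times in BXD87, with a median of 1.71. The step from Calcb up to Calca had a median of 6.54, and that from Adcyap1 up to Tac1 a median of 5.05. Exon lengths were 1684 bases for Calca, 1264 for Calcb, 3399 for Tac1 and 3777 for Adcyap1, and they join all annotated transcripts. A count per gene cannot separate the calcitonin and CGRP transcripts of Calca, and since Calca and Calcb are similar paralogs, how reads that match both were assigned could shift the step between them.

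All 4 genes varied more over the strains than most genes that averaged 1000 scaled counts or more. Scaled counts of Calca had a lowest value of 27092 in BXD68, a median of 35514 and a highest value of 73014 in BXD21, a 2.70-fold range. Calcb ran from 2890 in BXD73 over a median of 4209 to 7261 in BXD40, a 2.51-fold range. The highest strains of both CGRP genes were thus TyJ strains and the lowest were RwwJ strains. Tac1 ran from 5283 in BXD87 over a median of 7316 to 14870 in BXD21, a 2.82-fold range. Adcyap1 ran from 1170 in BXD42 over a median of 1627 to 2782 in BXD21, a 2.38-fold range. BXD21 was thus the highest strain for Calca, Tac1 and Adcyap1, and the second highest for Calcb. The SD of the log2 values was 0.37 for Calca, 0.32 for Calcb, 0.35 for Tac1 and 0.29 for Adcyap1, against a median of 0.17 for the 5595 genes that averaged 1000 scaled counts or more. Of those genes, 6.65% had a larger SD than Calca, 8.56% a larger SD than Tac1, 10.7% a larger SD than Calcb and 15.6% a larger SD than Adcyap1. Without BXD21, BXD36 and BXD40 the SD was 0.18 for Calca, 0.22 for Calcb, 0.24 for Tac1 and 0.24 for Adcyap1. The background was not taken again without these strains.

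**Figure D1:**
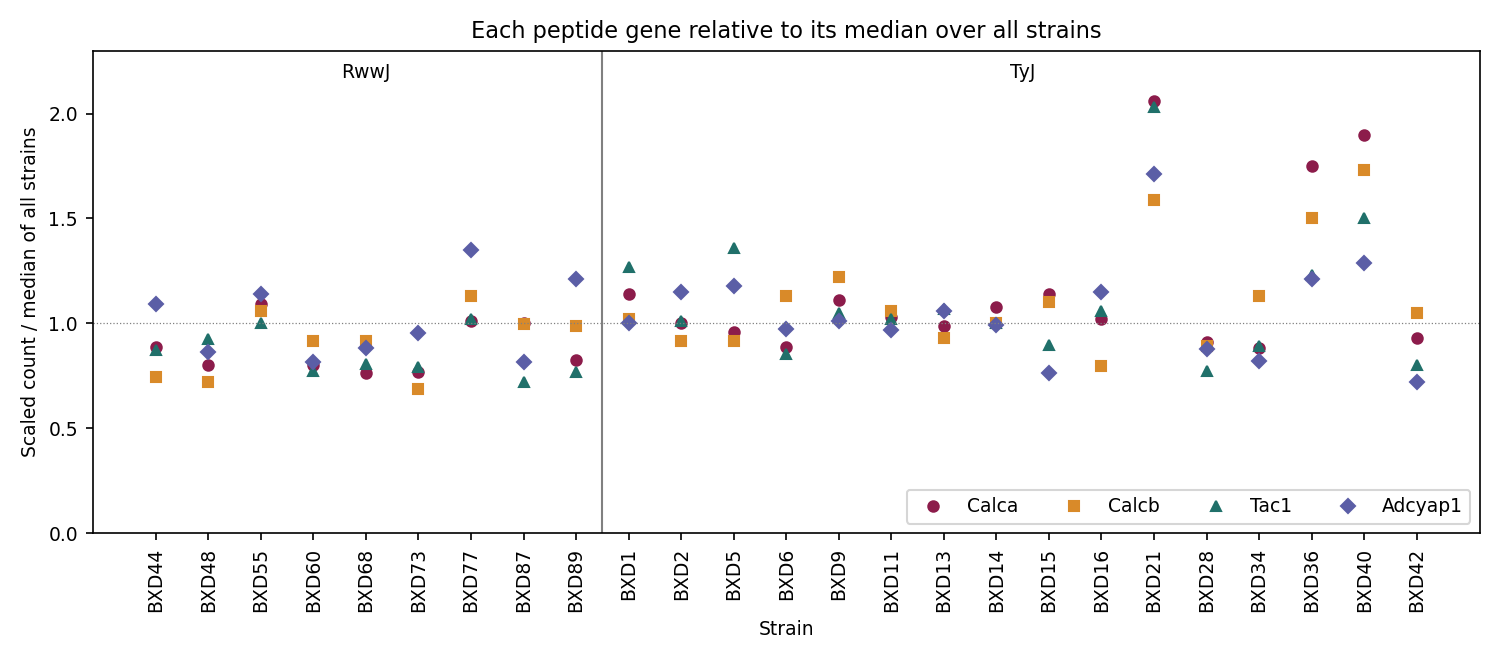
Scaled count of each peptide gene divided by its median over all 25 strains (y axis), by strain (x axis), with RwwJ strains left and TyJ strains right of the grey line; the dotted line marks the median. BXD21, BXD36 and BXD40 lie highest for Calca, at 2.06, 1.75 and 1.90 times the median, and the other 22 strains lie at or below 1.14.

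BXD21, BXD36 and BXD40, all TyJ strains, stood apart. Their Calca values were 73014, 62005 and 67452, and the next strain, BXD1, had 40540, a gap of 46.7% of the whole range. They were also the highest strains for Calcb, with 6679, 6315 and 7261, and the next strain, BXD9, had 5142. All 4 peptide genes were above their median in BXD9, BXD21, BXD36, BXD40 and BXD77, and none of them was in BXD28, BXD48, BXD60, BXD68, BXD73 and BXD87. Tac1 and Adcyap1 set the 3 strains less clearly apart. Tac1 was 14870 in BXD21, 8969 in BXD36 and 10948 in BXD40, and BXD5 and BXD1 lay between them with 9961 and 9327. Adcyap1 was 2782, 1971 and 2097, and the RwwJ strains BXD77 and BXD89 had 2192 and 1972. Without the 3 strains, Calca averaged 33951 ± 4226 scaled counts (SD, n = 22), and its highest value was 1.5 times its lowest.

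Another property of these libraries moved with the peptide genes. The exon-length slope of a library is the slope of each gene's log2 deviation from its mean over strains against the log2 of its exon length, over 15642 genes, so a negative slope means that short transcripts were high and long ones low. The lowest slopes of all strains were -0.163 in BXD40, -0.150 in BXD36 and -0.119 in BXD21, and the highest was 0.116 in BXD68. In these 3 strains, in the order BXD21, BXD36 and BXD40, the class of shortest genes, of 5 equal classes by exon length, had median log2 deviations of 0.18, 0.26 and 0.26, and the class of longest genes had -0.22, -0.20 and -0.23. Calca and Calcb belong to the shortest class: 10.8% of genes are shorter than Calca and 5.5% are shorter than Calcb. Their own deviations were larger than those medians, at 0.996, 0.76 and 0.88 for Calca and 0.64, 0.56 and 0.76 for Calcb. Tac1, in class 2, deviated by 1.04, 0.31 and 0.60, and Adcyap1, in class 3, by 0.75, 0.25 and 0.34.

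Over strains, the slope was negatively related to the CGRP genes and to Tac1. Pearson's r with Calca over the 22 strains besides the 3 was -0.64 (permutation p = 0.00144, Benjamini-Hochberg adjusted over 4 relations 0.00192), with Spearman's rho of -0.61. With Calcb it was -0.87 over 25 strains (permutation adjusted p = 4e-05) and -0.72 over 22. With Tac1 it was -0.64 over 25 strains (permutation adjusted p = 0.00118) and -0.33 over 22. With Adcyap1 it was -0.39 (permutation adjusted p = 0.0551) and 0.03 over 22. Leaving out the 2 strains farthest from the median slope gave -0.49 for Calca, -0.79 for Calcb, -0.55 for Tac1 and -0.26 for Adcyap1. Within RwwJ strains r was -0.78 for Calca, -0.70 for Calcb, -0.47 for Tac1 and -0.71 for Adcyap1. Within TyJ strains it was -0.43, -0.89, -0.55 and -0.32 in the same order, BXD21, BXD36 and BXD40 left out for Calca. The part of the slope, and of RNA quality, in the levels of these genes was not tested. The slope was measured after the levels were known.

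**Figure D2:**
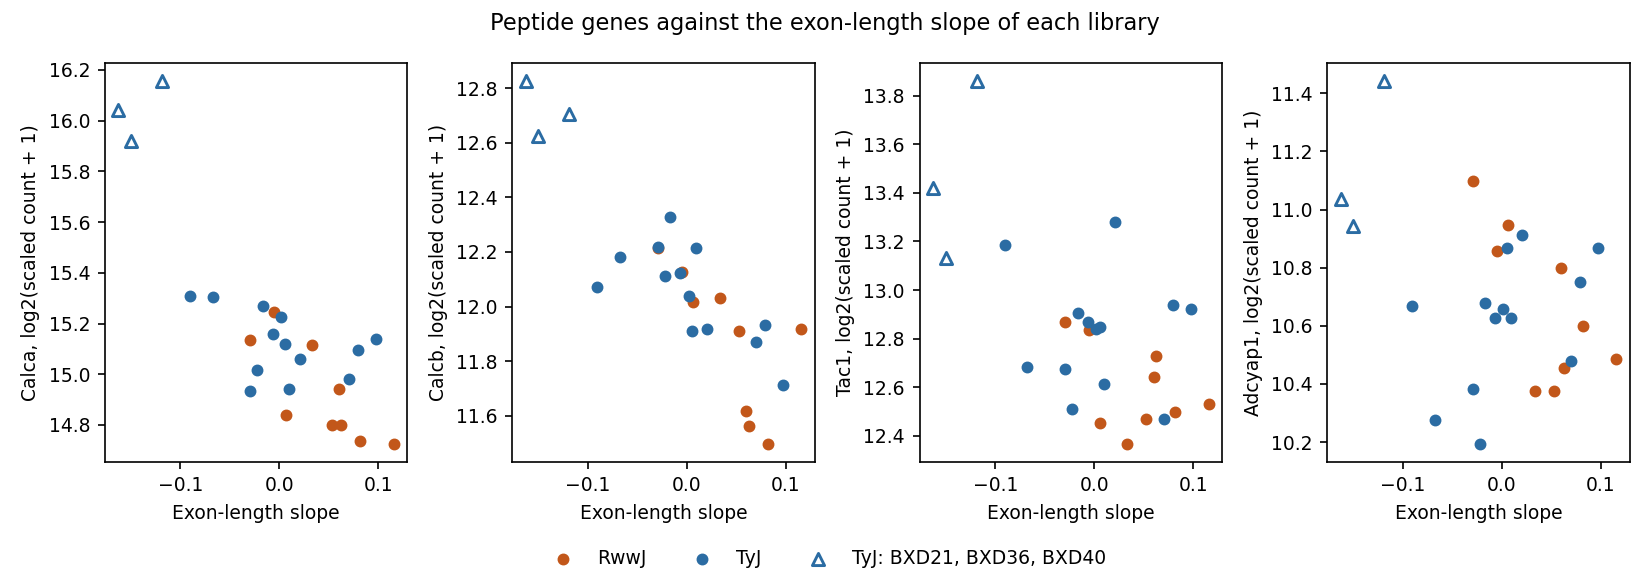
Log2(scaled count + 1) of each peptide gene (y axis) against the exon-length slope of the library in log2 units per doubling of exon length (x axis), 1 point per strain; open triangles are BXD21, BXD36 and BXD40. Calca and Calcb are high where the slope is low, with r of -0.64 over 22 strains for Calca and -0.87 over 25 strains for Calcb. Adcyap1 follows it less over 25 strains, with -0.39, but has -0.71 within RwwJ strains.

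The 9 RwwJ strains were compared with the 16 TyJ strains first. The means of the CGRP genes and of Tac1 were lower in RwwJ strains and that of Adcyap1 was close in both, and none of these differences passed limma's test over all genes. Limma with Benjamini-Hochberg adjustment called 0 of 16152 genes, a share of 0%, in either direction, while 2440 genes had an unadjusted p under 0.05 and limma with array weights called 6. Of all genes tested, 8.92% were lower in RwwJ and 6.19% were higher at an unadjusted p under 0.05.

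In RwwJ strains, Calca ran from 27092 over a median of 29278 to 38835 scaled counts, and in TyJ strains from 31329 over a median of 36349 to 73014. Of the 9 RwwJ strains, 5 lay below every TyJ strain and all 9 lay below the TyJ mean, while the upper RwwJ values overlapped with most TyJ values. All TyJ strains besides BXD21, BXD36 and BXD40 also lay below the TyJ mean, the highest of them being BXD1 with 40540. Means were 31395 ± 4327 in RwwJ and 41677 ± 13283 in TyJ (SD, n = 9 and 16), which made a log2 difference of -0.37 ± 0.13 (SE; limma p = 0.0114, adjusted p = 0.290; exact permutation p = 0.0136 over 2042975 splits of the strains). Without BXD21, BXD36 and BXD40 the difference was -0.19 (limma p = 0.0117, adjusted p = 0.643), and with the exon-length slope as a covariate it was -0.11 (limma p = 0.268).

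Calcb ran from 2890 over a median of 3863 to 4758 in RwwJ strains, and from 3357 over a median of 4436 to 7261 in TyJ strains. The ranges overlapped, with 3 RwwJ strains below every TyJ strain. Means were 3813 ± 662 in RwwJ and 4729 ± 1113 in TyJ, for a log2 difference of -0.30 ± 0.12 (SE; limma p = 0.0174, adjusted p = 0.295; exact permutation p = 0.0235). It was -0.17 without the 3 strains (limma p = 0.0622) and -0.057 with the slope as a covariate (limma p = 0.444).

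Tac1 ran from 5283 over a median of 5913 to 7475 in RwwJ strains, and from 5672 over a median of 7581 to 14870 in TyJ strains. All 9 RwwJ strains lay below the TyJ mean, 2 lay below every TyJ strain, and 9 of 16 TyJ strains lay above every RwwJ strain. Of the TyJ strains, all but BXD1, BXD5, BXD21, BXD36 and BXD40 also lay below the TyJ mean. Means were 6248 ± 787 in RwwJ and 8153 ± 2319 in TyJ, for a log2 difference of -0.35 ± 0.12 (SE; limma p = 0.00878, adjusted p = 0.290; exact permutation p = 0.0108). It was -0.23 without the 3 strains (limma p = 0.0186) and -0.19 with the slope as a covariate (limma p = 0.125).

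Adcyap1 ran from 1327 over a median of 1551 to 2192 in RwwJ strains, and from 1170 over a median of 1634 to 2782 in TyJ strains. The RwwJ values lay inside the TyJ range. Means were 1649 ± 313 in RwwJ and 1715 ± 388 in TyJ, for a log2 difference of -0.047 ± 0.12 (SE; 95% interval -0.29 to 0.19; limma p = 0.691, adjusted p = 0.860). It turned to 0.052 without the 3 strains and to 0.065 with the slope as a covariate.

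The exon-length slope averaged 0.0421 ± 0.0455 in RwwJ strains and -0.0237 ± 0.0774 in TyJ strains (SD), so short transcripts were on average lower in the RwwJ libraries. Its part in the group differences of the peptide genes was not tested beyond the values with it as a covariate. Counted by strain, at most 1 of the 4 genes was above its median over all strains in 7 of 9 RwwJ strains, against 4 of 16 TyJ strains.

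**Figure D3:**
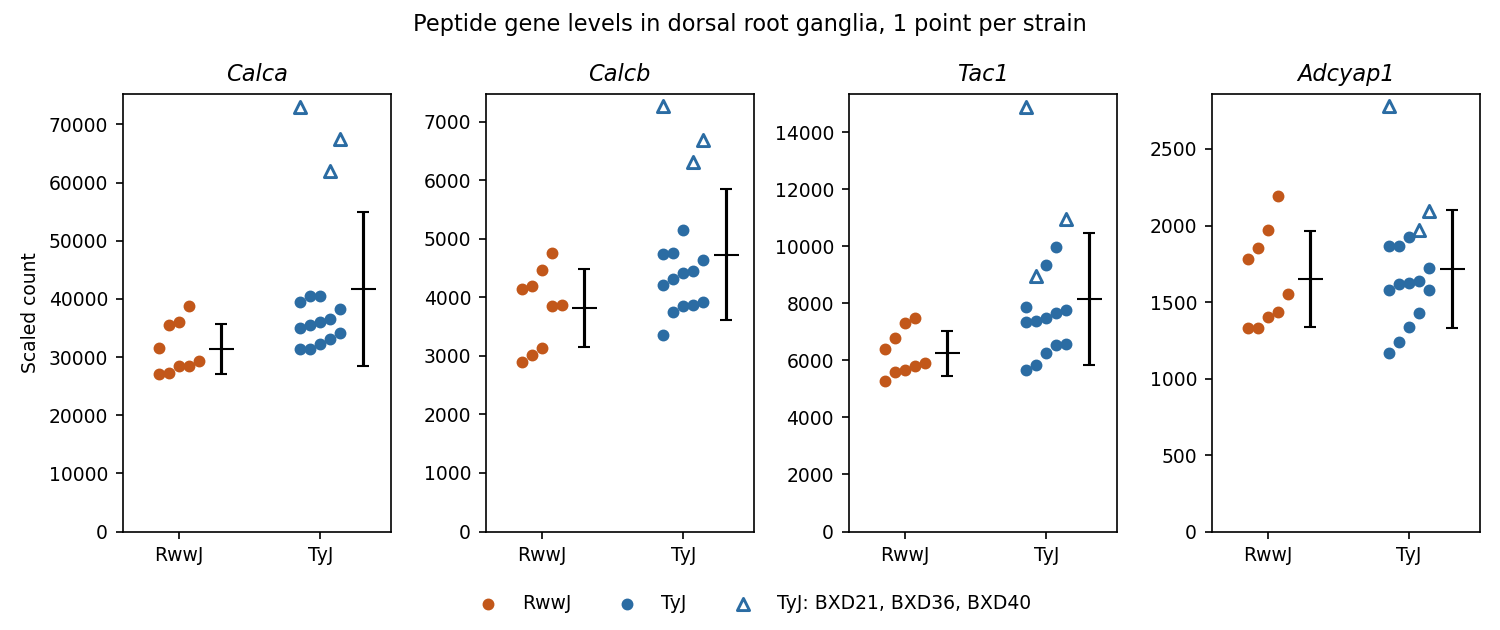
Scaled counts (y axis, linear from 0) of Calca, Calcb, Tac1 and Adcyap1 in RwwJ (left) and TyJ strains (right), 1 point per strain, with mean and SD beside each group; open triangles are BXD21, BXD36 and BXD40. The RwwJ means are 31395, 3813, 6248 and 1649, against TyJ means of 41677, 4729, 8153 and 1715, with overlapping ranges for each gene.

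A ratio between a pair of genes removes any factor that scales both alike. Calca per Calcb averaged 8.35 ± 1.13 in RwwJ strains and 8.77 ± 1.25 in TyJ strains, and Calca per Tac1 averaged 5.06 ± 0.71 in RwwJ strains and 5.14 ± 0.83 in TyJ strains (SD, n = 9 and 16). Both differences were smaller than the spread between strains (exact permutation, adjusted p = 0.651 and 0.856). Tac1 per Adcyap1 differed: it was lower in RwwJ strains, running from 2.84 in BXD89 over a median of 3.94 to 4.83 in BXD48, against 3.94 in BXD2 over a median of 4.71 to 5.73 in BXD1 in TyJ strains. Of 9 RwwJ strains, 8 lay below the TyJ mean and 5 lay below every TyJ strain. Means were 3.86 ± 0.56 in RwwJ and 4.74 ± 0.54 in TyJ, for a log2 difference of -0.30 (exact permutation p = 0.000644, Benjamini-Hochberg adjusted over 6 ratios 0.00386). The difference was -0.28 without BXD21, BXD36 and BXD40 (exact permutation, adjusted p = 0.0156), and after regression on the exon-length slope it was -0.20 and no longer passed (exact permutation, adjusted p = 0.0752). Calca per Adcyap1 averaged 19.4 ± 3.48 in RwwJ and 24.3 ± 4.75 in TyJ, for a log2 difference of -0.32 (exact permutation, adjusted p = 0.0280), which no longer passed without the 3 strains (-0.24, adjusted p = 0.0980) or after regression on the slope (-0.14, adjusted p = 0.445). Calcb per Adcyap1 averaged 2.36 ± 0.47 in RwwJ and 2.82 ± 0.63 in TyJ (exact permutation, adjusted p = 0.141). These 6 tests were added after the levels were known. The regression of the ratios used the slope alone, without the group, unlike the covariate fits of the levels. Since the slope differed between the groups, this regression can also take up part of a group difference, and that part was not tested.

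The second comparison asked how the peptide genes varied together over strains. Because BXD21, BXD36 and BXD40 form a separate cluster in Calca, its pairs were tested over the other 22 strains only. Of the pairs without Calca, Tac1 and Adcyap1 had the highest r. Over 25 strains their r was 0.74 (permutation p = 5e-05, adjusted over 6 pairs 0.0003) with a rho of 0.63. It was 0.56 without BXD21 and BXD40, the 2 strains farthest from the median of Tac1, and 0.52 without the 3 strains (permutation p = 0.0121). Over those 22 strains, r of Calca with Tac1 (0.59) and with Calcb (0.55) was higher. Within RwwJ r of Tac1 and Adcyap1 was 0.59 (exact permutation p = 0.0997, n = 9). Within TyJ, with the 3 strains kept, it was 0.89 (permutation p = 1e-05, the smallest that 100000 permutations can give, n = 16).

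Calca varied with Tac1 and with Calcb among the 22 strains. For Calca and Tac1, r was 0.59 (permutation p = 0.00352, adjusted p = 0.00704) and rho was 0.61, and r was 0.54 without the 2 strains farthest from the median. Within RwwJ it was 0.49 (exact permutation p = 0.180, n = 9) and within the 13 other TyJ strains it was 0.47 (permutation p = 0.104), so neither group passed alone. For the paralogs Calca and Calcb, r was 0.55 (permutation p = 0.00817, adjusted p = 0.0123) and rho was 0.50. Without BXD68 and BXD73, the 2 strains farthest from the median of Calca, it was 0.46 and no longer passed (permutation p = 0.0395, adjusted p = 0.0791). Within RwwJ it was 0.66 (exact permutation p = 0.0539, n = 9), and within the 13 other TyJ strains it was 0.13 (permutation p = 0.681). After regression of both genes on the exon-length slope, r of the paralogs was 0.18 (permutation p = 0.423). For Calca and Adcyap1, r was 0.20 (permutation p = 0.368).

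The remaining pairs rested on the 3 strains. For Calcb and Tac1, r was 0.60 over 25 strains (permutation adjusted p = 0.00516; rho 0.44), and it was 0.15 without the 3 strains. For Calcb and Adcyap1, r was 0.42 (permutation adjusted p = 0.0454; rho 0.28, adjusted p = 0.201), and it was -0.049 without them. Among the 22 strains, r with Tac1 was thus 0.59 for Calca and 0.15 for Calcb, and the difference between these values was not tested.

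**Figure D4:**
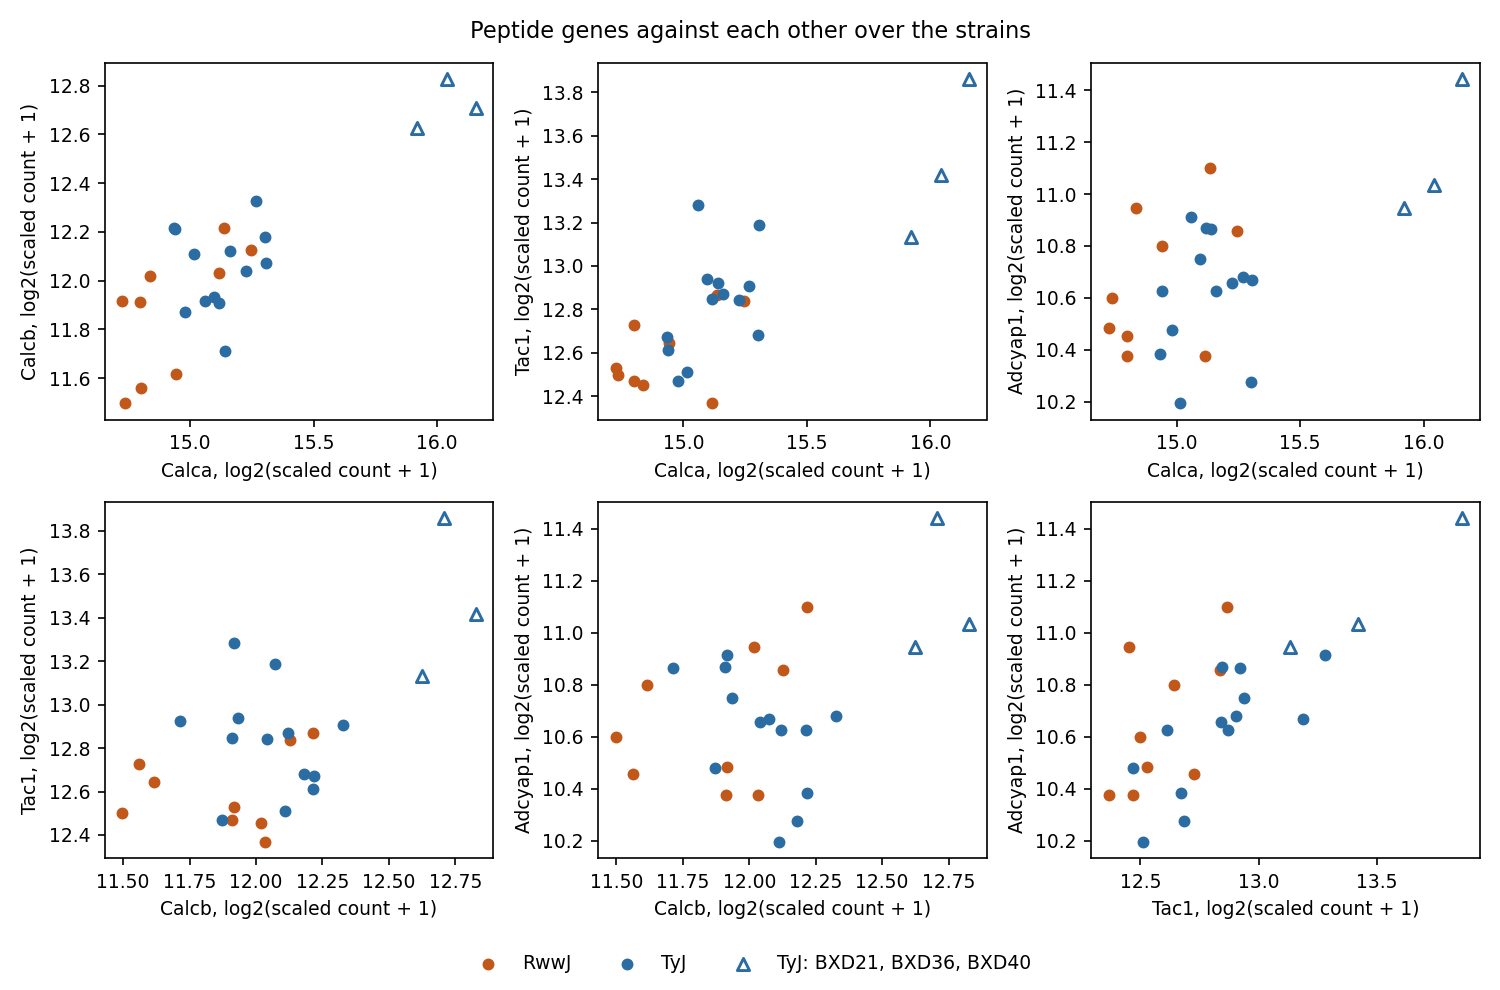
Log2(scaled count + 1) of the peptide genes plotted against each other in 6 panels, 1 point per strain; open triangles are BXD21, BXD36 and BXD40. The 3 strains lie apart at the upper right in the panel of Calca with Calcb. On the axes of Tac1 and Adcyap1, strains besides these 3 lie above BXD36. Among the other 22 strains the relation is clearest for Calca with Tac1 (r = 0.59), Calca with Calcb (0.55) and Tac1 with Adcyap1 (0.52).

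The peptide genes were then set against scores of 15 cell type lists, each the mean log2 value of its measured markers, in 60 relations. Of these, 7 passed by Pearson's r at a permutation p adjusted over all 60. They were 3 with Calca, over 22 strains, and over 25 strains 2 with Tac1, 2 with Adcyap1 and 0 of 15 with Calcb. By Spearman's rho alone, Calcb passed with the erythroid list (0.55, permutation adjusted p = 0.0394) and the macrophage list (0.53, permutation adjusted p = 0.0469). By rho alone, Adcyap1 passed with the list of C-low-threshold mechanoreceptors (0.56, permutation adjusted p = 0.0394). Adcyap1 followed the other markers of peptidergic nociceptors most closely. Among the markers of the list were the heat-gated channel Trpv1, the artemin receptor Gfra3, Kit, Gal, Adra2a, Smr2 and Sstr2, and none of the 4 peptide genes. For Adcyap1, r was 0.83 over 25 strains (permutation p = 1e-05, the smallest possible; adjusted p = 0.0006) and rho was 0.79. It was 0.73 without the 2 strains farthest from the median of the score, 0.75 without BXD21, BXD36 and BXD40, 0.77 within RwwJ, 0.86 within TyJ and 0.84 after regression on the exon-length slope. Tac1 followed the same score with r of 0.70 (permutation adjusted p = 0.0026; rho 0.62), and 0.46 over 22 strains, which did not pass. Within RwwJ this r was 0.83, and within TyJ it was 0.71. For Calca and Calcb the relation did not pass: r was 0.16 for Calca over 22 strains (permutation p = 0.472), and for Calcb it was 0.26 over 25 strains (permutation p = 0.210) and -0.30 over 22.

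**Figure D5:**
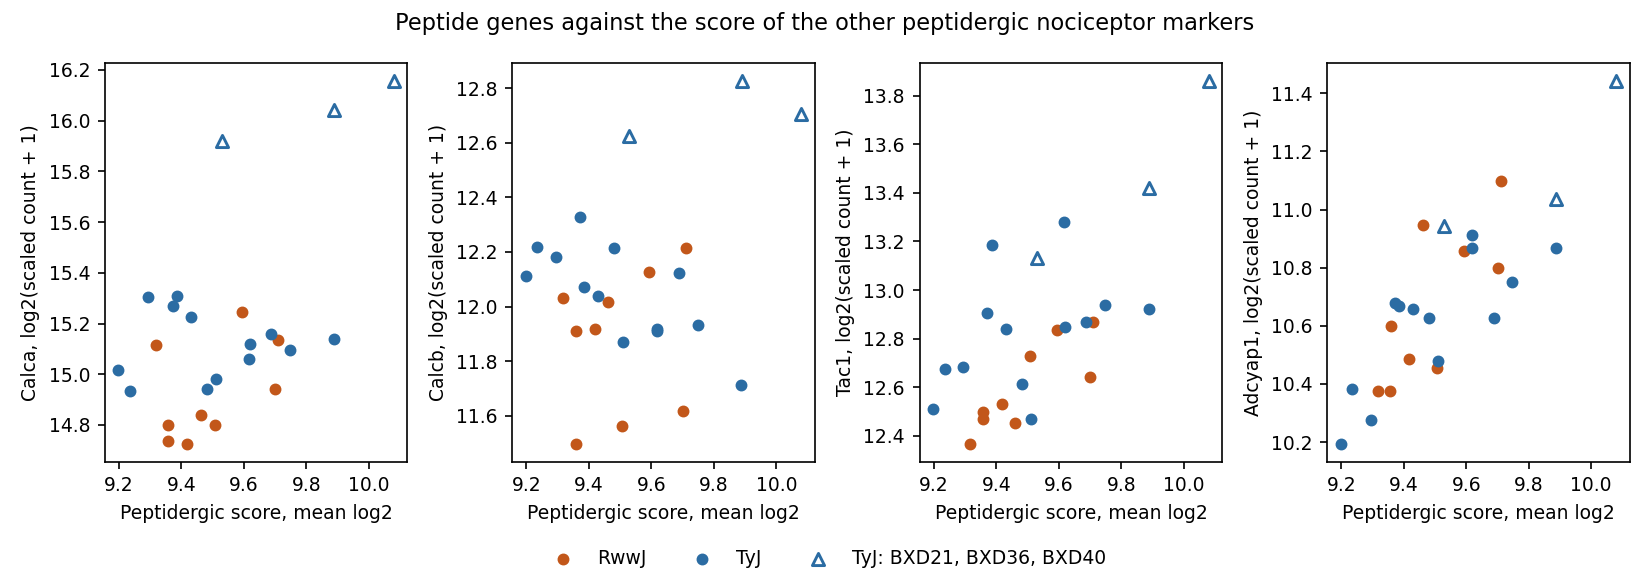
Log2(scaled count + 1) of each peptide gene (y axis) against the mean log2 value of the 8 other peptidergic nociceptor markers (x axis), 1 point per strain; open triangles are BXD21, BXD36 and BXD40. Adcyap1 lies along a line with r of 0.83 and Tac1 more loosely with 0.70, and Calca shows no such line among the 22 other strains (r = 0.16).

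Satellite glia, the cells that wrap the neuronal bodies, gave the other relations of Tac1 and Adcyap1 that passed by Pearson's r. Against their list of Fabp7, Glul, Apoe, Kcnj10 and Cdh19, r was 0.68 for Tac1 (permutation adjusted p = 0.0026) and 0.60 for Adcyap1 (permutation adjusted p = 0.0169), with rho of 0.64 and 0.58. Over the 22 strains these were 0.51 and 0.42, and neither passed. The markers of this list differed: over 25 strains Apoe had r of 0.64 with Tac1 and 0.65 with Adcyap1, and Fabp7 had 0.53 and 0.37. Glul had 0.16 and 0.17, Kcnj10 had 0.09 and 0.16, and Cdh19 had 0.17 and 0.11. Calca among the 22 strains was related positively to the list of endothelium and mural cells (r = 0.66, permutation adjusted p = 0.0119) and to that of myelinating Schwann cells (r = 0.57, permutation adjusted p = 0.0446), and negatively to the pan-neuronal list (r = -0.57, permutation adjusted p = 0.0446). Without the 2 strains farthest from the median of the score these 3 were 0.53, 0.34 and -0.62. Spearman's rho was 0.61, 0.58 and -0.54, and that of the pan-neuronal list did not pass (permutation adjusted p = 0.0564). Within RwwJ r was 0.84, 0.61 and -0.61, and within the 13 other TyJ strains it was 0.32, 0.27 and -0.45. After regression on the exon-length slope they were 0.31, 0.40 and -0.24, and none passed. For Calcb over the same 22 strains, r with these 3 lists was 0.66, 0.18 and -0.38. It was tested over 25 strains only, where r with endothelium and mural cells was 0.31 (permutation adjusted p = 0.305). The score of the Schwann cell list averaged 12.61 ± 0.45 (log2) in RwwJ strains and 12.84 ± 0.26 in TyJ strains (SD, n = 9 and 16), and its part in the level of Calca was not tested.

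The genes most alike to each peptide gene were named by Pearson's r over 25 strains among the 12309 genes that averaged 100 scaled counts or more, as a description with the value over 22 strains beside it. For Calca the highest was Mrpl27, a protein of the mitochondrial ribosome, with r of 0.91 over 25 strains and 0.76 over 22. It was followed by Sdf2 (0.90 and 0.73), the rRNA methyltransferase Dimt1 (0.90 and 0.47), Dcaf13 (0.90 and 0.75), the small GTPase Cdc42 (0.90 and 0.56), Sept7 (0.90 and 0.47), Arhgap15 (0.90 and 0.66) and Tusc3 (0.90 and 0.58). The most opposite were the glutamine transporter Slc38a1 (-0.93 and -0.72), Hivep1 (-0.92 and -0.66), the mRNA decapping enzyme Dcp2 (-0.91 and -0.61) and Tnrc6c (-0.91 and -0.59). Calcb shared several of them: its highest were Dcaf13 (0.92 and 0.81), Mrpl46 (0.91 and 0.79), Sdf2 (0.91 and 0.80), the cyclophilin Ppia (0.90 and 0.75), Mrpl27 (0.89 and 0.74), Saysd1 (0.89 and 0.72), Actr6 (0.89 and 0.72) and Lsm1 (0.89 and 0.72). Its lowest were the latrophilin Adgrl1 (-0.93 and -0.84), Slc38a1 (-0.92 and -0.79), Efr3a (-0.91 and -0.80) and Helz (-0.90 and -0.78).

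None of these genes belongs to the neuropeptide lists, and they differ in exon length. The 100 genes most alike to Calca had a median exon length of 3111 bases and the 100 most opposite 11402, against 4667 for all candidates. For Calcb these medians were 2452 and 10308, for Tac1 3146 and 8149, and for Adcyap1 3363 and 6827. Of all genes, 6.82% had r of at least 0.7 with Calca over 25 strains and 0.427% over 22. The shares were 6.97% and 0.662% for Calcb, 0.997% and 0.0805% for Tac1, and 0.105% and 0.124% for Adcyap1. A high r over 25 strains was thus common for the CGRP genes and rare for Adcyap1. By r over 22 strains, Calca was in place 171 of 16151 genes for Tac1, and Tac1 was in place 586 for Calca. Tac1 was in place 270 for Adcyap1, and Adcyap1 was in place 462 for Tac1. Of the paralogs, Calcb was in place 993 for Calca, and Calca was in place 1048 for Calcb. Over 25 strains, Tac1 was in place 6 for Adcyap1, and Adcyap1 was in place 48 for Tac1.

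Tac1 was most alike to the kinase Stk26 (0.85 and 0.76), followed by Arhgap15 (0.84 and 0.65), the protease Ctsl (0.83 and 0.59), Ndn (0.82 and 0.63), Skap2 (0.82 and 0.53), the tetraspanin Cd9 (0.80 and 0.55), Bnip3l (0.80 and 0.70) and Tceal1 (0.80 and 0.62). Its most opposite genes were D630045J12Rik (-0.83 and -0.70), Luzp1 (-0.83 and -0.62), Ankrd35 (-0.82 and -0.75) and Atp8b2 (-0.82 and -0.72). Among the genes most alike to Adcyap1, the highest was Gal, the gene of the peptide galanin, with 0.83 and 0.72, and the eighth was the receptor Gfra3 (0.73 and 0.63). Both belong to the peptidergic list above. Between them came Lgals9 (0.78 and 0.66), the complement regulator Cd55 (0.78 and 0.68), the glycolytic enzyme Pfkl (0.78 and 0.66), Zdhhc12 (0.77 and 0.67), the major vault protein Mvp (0.74 and 0.71) and Prps1l3 (0.73 and 0.64). The most opposite were 1700025G04Rik (-0.79 and -0.79), Lgi2 (-0.76 and -0.67), Arap2 (-0.75 and -0.58) and the sialyltransferase St3gal1 (-0.74 and -0.66).

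CGRP signals through Calcrl joined to Ramp1, substance P through Tacr1 and PACAP through Adcyap1r1 and the Vipr receptors. Of 13 genes on the receptor list, 9 were tested, and none passed limma's test. By the mean of log2 values, 4 were lower and 5 higher in RwwJ strains. The median log2 difference was 0.07, against -0.0047 for all genes, and Crcp alone had an unadjusted p under 0.05, lower in RwwJ. Calcrl ran from 253 in BXD36 to 563 in BXD9 and Ramp1 from 126 in BXD21 to 844 in BXD34. Ramp2 ran from 591 in BXD21 to 1400 in BXD15, and Ramp3 from 48 to 137. BXD21, the strain with the highest Calca, was the lowest for Ramp1 and Ramp2. Over 25 strains r with Calca was -0.11 for Calcrl and -0.40 for Ramp1, and over 22 strains it was 0.53 and 0.15, so the sign depended on the 3 strains. Crcp, an RNA polymerase subunit also named as a CGRP receptor component, averaged 1551 in RwwJ and 1720 in TyJ (log2 difference -0.15 ± 0.06, limma p = 0.0265, adjusted p = 0.306).

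Tacr1 ran from 2 in BXD40 to 100 in BXD48, with a median of 8, Tacr3 from 14 to 145 and Adcyap1r1 from 72 to 1436, with a median of 135. The highest value of all 3 was in BXD48, the library with the highest spinal cord score, and the part of spinal cord RNA in it was not tested. Vipr2 ran from 13 in BXD21 to 85 in BXD15. Calcr, Tacr2, Vipr1 and Mrgprb2 were not tested. Of 10 related peptides of the same families, 2 were tested: adrenomedullin, Adm, ran from 31 in BXD21 to 168 in BXD5, and the tachykinin Tac2 from 0 in BXD15 to 257 in BXD48.

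Genes for making, storing and breaking down peptides gave no limma call either. As background for the list counts here and below, the median log2 difference of all genes was -0.0047. At an unadjusted p under 0.05, 6.19% of all genes were higher and 8.92% lower in RwwJ strains. The share of all genes with a higher mean log2 value, whatever the p, was not counted. Of 10 processing genes, 6 had a higher and 4 a lower mean log2 value in RwwJ strains, with a median difference of 0.01. The convertase chaperone Scg5 showed the lowest difference (-0.94 ± 0.49, limma p = 0.0684) and ran from 2048 in BXD13 to 24836 in BXD40. Its r with Calca was 0.58 over 25 strains and -0.05 over 22. The prohormone convertase Pcsk1 had a difference of 0.09 and the carboxypeptidase Cpd one of 0.12, and Qpct had -0.26. Cpd was the most opposite to Calca of these genes over 25 strains, with r of -0.75, and -0.16 over 22. Of 11 dense-core vesicle genes, 10 had a higher mean log2 value in RwwJ strains, with a median difference of 0.07. Only chromogranin B, Chgb, had an unadjusted p under 0.05 (3540 in RwwJ and 2967 in TyJ, 0.26 ± 0.09, limma p = 0.00639, adjusted p = 0.290). Chgb was also the most opposite to Calca of its list, with r of -0.69 over 25 strains and -0.63 over 22. Vgf had a difference of 0.19, Scg2 of -0.12 and Ptprn of 0.01. Scg2 had the highest r of the list with Calca over 25 strains, 0.48, and 0.24 over 22.

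Of 9 peptidases, 5 had a higher and 4 a lower mean log2 value in RwwJ strains, with a median difference of 0.01. At an unadjusted p under 0.05, Ide, the insulin-degrading enzyme, was higher (0.12 ± 0.05, limma p = 0.0191, adjusted p = 0.296) and Ece1 was lower (-0.13 ± 0.06, limma p = 0.0479, adjusted p = 0.328). Neprilysin, Mme, which cleaves substance P, had -0.11, Dpp4 had 0.20 and Ace 0.14. Thop1 had the highest r with Calca of the list over 25 strains, 0.58, and -0.42 over 22, and Ide the lowest, with -0.58 and -0.35.

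Of 12 other ganglion neuropeptides tested, 9 had a lower and 3 a higher mean log2 value in RwwJ strains, with a median difference of -0.20. The lowest differences were those of Cartpt, which encodes the CART peptides (567 in RwwJ and 1042 in TyJ, -0.81 ± 0.32, limma p = 0.0179, adjusted p = 0.296), and of the itch peptide gene Nppb (446 in RwwJ and 780 in TyJ, -0.69 ± 0.29, limma p = 0.0253, adjusted p = 0.306). The highest were those of Cck (1.03 ± 0.52, limma p = 0.0593) and Pdyn (0.98 ± 0.46, limma p = 0.0440), both with their highest value in BXD48. Nmb, the gene of neuromedin B, was most alike to Calca in this list, with r of 0.82 over 25 strains and 0.52 over 22, and ran from 3669 in BXD68 to 7381 in BXD40. Npy was the most opposite, with -0.29 and -0.45.

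Among regulators of nociceptor genes, Klf7 had a log2 difference of 0.14 between RwwJ and TyJ strains (limma adjusted p = 0.471) and Rest one of -0.12 (limma adjusted p = 0.528), and neither passed. Prdm12, a factor needed for nociceptor development, had r of 0.43 with Calca over 25 strains and -0.23 over 22, and Klf7 had -0.68 and -0.51.

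On chromosome 7, Calca and Calcb were next to each other among the tested genes. Beyond them, Insc had r of 0.75 with Calca over 25 strains and 0.59 over 22, Psma1, a proteasome subunit, had 0.84 and 0.34, and Pde3b had -0.22 and 0.14. Insc averaged 325 in RwwJ and 383 in TyJ (log2 difference -0.23 ± 0.08, limma p = 0.0121, adjusted p = 0.290) and Pde3b averaged 427 in RwwJ and 416 in TyJ. With Calcb, Insc had 0.74 and 0.57 and Sox6 had 0.10 and 0.13. Around Tac1 on chromosome 6, Sem1 had r of 0.57 and 0.10 with it, Sdhaf3 0.62 and 0.25, Asns 0.10 and -0.06, and C1galt1 -0.29 and 0.29. Around Adcyap1 on chromosome 17, r with it over 22 strains was 0.26 for Gm10493, 0.43 for Mettl4 and -0.20 for Gm1976. Of the neighbours named, Insc thus had the highest r with a peptide gene among the 22 strains.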

How the data were processed

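RNA of dorsal root ganglia was sequenced in 25 strains, with 1 library each. The submitters' processing notes name TopHat2 2.0.9, HTSeq and CASAVA 1.8.0 as tools and mm9 and NCBIM37 as builds. The strand setting, the handling of reads that match several genes and the scaling tool are not given in these sources. The deposited unit is a score: read counts that the authors scaled to a common upper quartile (the upper quartile is about 1478 in each library) and rounded, as the values themselves show. No model of counts was therefore fitted. Depth was estimated from the step between low values, which was least clear in BXD36 and BXD44.

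Values were taken as log2(scaled count + 1) over the 16152 genes that averaged 10 or more, and 68 genes fell below this. Differences between RwwJ and TyJ strains were tested with limma 3.58.1 (R 4.3.3, trended prior, Benjamini-Hochberg over all genes at 0.05, two-sided) and by exact permutation. Correlations used two-sided tests with 100000 permutations, exact for 9 strains, adjusted over 6 pairs, 60 relations with 15 cell type lists, or 4 relations with the exon-length slope. Pairs and relations of Calca were planned over 25 strains and are given over 22, since 3 strains form a cluster. Tests were checked on simulated data. Symbols, chromosomes, neighbours and exon lengths came from the GENCODE mouse annotation, a later build, which named 15697 of 16220 identifiers.

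The members, the 22 gene lists and the naming rule were chosen with earlier results of these data known. The rule named the peptide genes, the 8 most alike and 4 most opposite genes of each, each tested receptor, from each other pathway list the 2 highest and 2 lowest group differences and the highest and lowest r with Calca, the top gene of a cell type list and those needed beside a result, and the 2 tested neighbours on each side. Any gene outside the rule was named for its role after its values were seen. Some genes that the rule names, and the counts of the list of nociceptor regulators, are not reported here. Ratio tests and the exon-length slope were added after the data were seen. Alternatives were other pseudocounts, filters and scalings, array weights, covariates, within-group values and leaving out strains.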

Additional observations from a re-analysis of the deposited data

Results flagged for a closer look

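Of 11 values checked within the 9 RwwJ strains (the 4 peptide genes, their 6 ratios and the exon-length slope), 1 had a strain far from the others. The ratio of Calca to Tac1 was 6.72 in BXD87, whose gap to the next strain made up 0.562 of the range of the group, above Dixon's critical value at the 95% level for 9 samples. BXD87 had 35514 scaled counts of Calca, the median of all strains, and 5283 of Tac1, the lowest of all strains. Chance alone sets about 1 in 20 such groups apart, and the TyJ group, with 16 strains, is too large for this check.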

How the results depend on the processing

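The differences of Calca, Calcb and Tac1 between RwwJ and TyJ strains kept their direction under each alternative run, and none passed limma's adjusted threshold under any of them. By the exact permutation test alone, which is not adjusted over genes, Calca (-0.37, p = 0.0136), Calcb (-0.30, p = 0.0235) and Tac1 (-0.35, p = 0.0108) were past the threshold. The difference of Adcyap1 turned to 0.052 without BXD21, BXD36 and BXD40 and to 0.065 with the exon-length slope as a covariate, and ran from -0.10 to 0.0017 when each strain was left out. The number of genes called was 6 with array weights and 3 without BXD48, and ran from 0 to 3 when each strain was left out.

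Regression on the pan-neuronal score left r of 0.44 for Calca and Calcb, 0.45 for Calca and Tac1 and 0.41 for Calcb and Adcyap1, each short of the threshold after adjustment. Regression on the exon-length slope left 0.18 for Calca and Calcb, 0.13 for Calcb and Tac1 and 0.17 for Calcb and Adcyap1, which did not pass. Within RwwJ, 9 strains, r was 0.66 for Calca and Calcb, 0.49 for Calca and Tac1, 0.20 for Calcb and Tac1, 0.42 for Calcb and Adcyap1 and 0.59 for Tac1 and Adcyap1, and none passed. Within TyJ it was 0.13, 0.47, 0.57 and 0.43 for the first 4 of these pairs, which did not pass. Without the 2 strains farthest from the median it was 0.46 for Calca and Calcb, 0.30 for Calcb and Tac1 and 0.10 for Calcb and Adcyap1. Without BXD21, BXD36 and BXD40 it was 0.15 for Calcb and Tac1 and turned to -0.049 for Calcb and Adcyap1. For Calcb and Adcyap1 it was also short of the threshold with median-of-ratios scaling (0.41) and without BXD48 (0.39), and ran from 0.25 to 0.46 when each strain was left out.

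The ratio of Calca to Tac1 turned to a difference of 0.035 without the 3 strains, 0.015 without BXD48 and 0.065 after regression on the slope, and ran from -0.070 to 0.015 when each strain was left out. That of Tac1 to Adcyap1 ran from -0.34 to -0.25 and passed each time, and that of Calca to Adcyap1 did not pass without BXD44, BXD73, BXD77 or BXD89. For the weakened values the cause was not tested, other than that fits within a group hold fewer strains. No paired analysis was possible because the strain numbers of the groups are not shared. With 1 library per strain, technical error could not be measured.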
